A study of Rattus norvegicus with 4 samples.

Results

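The interleukin 6 and oncostatin M family was followed in rat synovium through 10 genes, chosen by name: 4 ligands (Il6, Osm, Lif, Il11), 4 receptor chains (Il6r, Il6st, Osmr, Lifr), and the signal and feedback genes Stat3 and Socs3. All 10 were found among the 17899 rat genes of the deposited expression table, with 1 row each. Synovium is the tissue that lines the joint, and here it came from rats with osteoarthritis, a state shared by all 4 libraries. Bulk messenger RNA was sequenced from tissue injected with human AdMSCs (1 library, AdMSC 1), from tissue injected with human SyMSCs (1 library, SyMSC 1) and from tissue labelled as injected with PBS, a salt solution (2 libraries, PBS 1 and PBS 2). AdMSC and SyMSC are abbreviations that the labels do not spell out; they commonly stand for human mesenchymal stem cells of adipose tissue and of synovium. Tissue was collected on the day after the cells were given. The titles join AdMSC 1 with PBS 1 by the word Ad, and SyMSC 1 with PBS 2 by the word Sy. They call the cell libraries "inj" and the PBS libraries "mix", words that are not explained, and the series title speaks of synovium before and after cell injection. The groups here follow the treatment label, PBS, so whether PBS tissue was taken before the cells or in parallel cannot be told, and each difference between injected and PBS carries that doubt. The strain, age and number of the rats, how the osteoarthritis arose, and whether the libraries are separate animals were not given in the sources used here, so p-values measure only the spread between these libraries, which may be technical.

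The family is defined by a shared signal-transducing receptor chain, gp130, encoded by Il6st. Interleukin 6 and interleukin 11 first bind a private receptor chain (IL-6R, IL-11R) and then gp130, while LIF and oncostatin M use gp130 paired with LIFR or OSMR. Signalling runs through Janus kinases to the transcription factor STAT3, and STAT3 induces Socs3, whose protein binds gp130 and ends the signal. In joints, interleukin 6 and oncostatin M are known as inflammatory cytokines, oncostatin M being made mainly by myeloid cells and T cells and acting on stromal cells that carry OSMR.

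The stretches of DNA before the annotated starts of Il6 and Il11 are shown because these are the ligand genes with an entry in the promoter table used, which held 8 of the 10 members and not Osm or Lif. Sequences are 250 bases each, from RefSeq, build GRCr8, 5′ to 3′ on the gene's strand: chr4:5894576-5894825, minus strand, for Il6, and chr1:78098372-78098621, plus strand, for Il11. Capitals mark matches to the motifs searched.
Il6: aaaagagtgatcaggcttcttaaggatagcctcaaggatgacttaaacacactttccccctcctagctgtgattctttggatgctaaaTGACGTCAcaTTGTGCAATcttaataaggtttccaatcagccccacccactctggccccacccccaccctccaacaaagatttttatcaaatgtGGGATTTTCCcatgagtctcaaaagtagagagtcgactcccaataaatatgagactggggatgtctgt
Il11: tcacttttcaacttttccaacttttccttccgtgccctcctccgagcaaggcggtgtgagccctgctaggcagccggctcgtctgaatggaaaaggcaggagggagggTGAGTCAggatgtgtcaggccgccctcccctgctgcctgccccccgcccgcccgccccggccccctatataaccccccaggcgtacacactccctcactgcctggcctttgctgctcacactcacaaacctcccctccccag
The Il6 window held a cyclic AMP response element (TGACGTCA, from 162 to 155 bases before the start), a C/EBP motif (TTNNGNAAT, 152 to 144 bases) and a match to the NF-kB consensus (68 to 59 bases), none of them overlapping. Of 33461 windows of the same length, 1.59% held the response element, 10.9% the C/EBP motif and 6.32% the NF-kB consensus on either strand. The Il11 window held an AP-1 motif (TGANTCA, 142 to 136 bases before the start), which 6.34% of windows held. The STAT motif TTCNNNGAA, held by 7.67% of windows, and the TATA box letters TATAAA, held by 12.9%, were found in none of the 8 members' windows. These matches describe letters alone, and no binding was measured.

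Values are TPM, shares of each library's transcripts scaled for gene length, so levels can be set beside each other between genes. With PBS the order of the family was led by the gp130 gene Il6st, with 102 TPM in PBS 1 and 104.5 TPM in PBS 2. Stat3 and Socs3 came next and changed places between the PBS libraries, followed by Osmr, Il6r, Osm and Lifr in both. Il6, Lif and Il11 stood lowest, between 0.39 and 1.67 TPM, and their order differed between the PBS libraries. After injection of cells, Osm, Socs3 and Stat3 held the highest levels in both libraries. Osm and Socs3 changed places between AdMSC 1 and SyMSC 1, the ranges of Il6, Il6st and Il6r lay close together or overlapped, and Lifr was the lowest in both. The read depth is unknown, so the values near 1 TPM are imprecise by an amount that cannot be given.

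**Figure D1:**
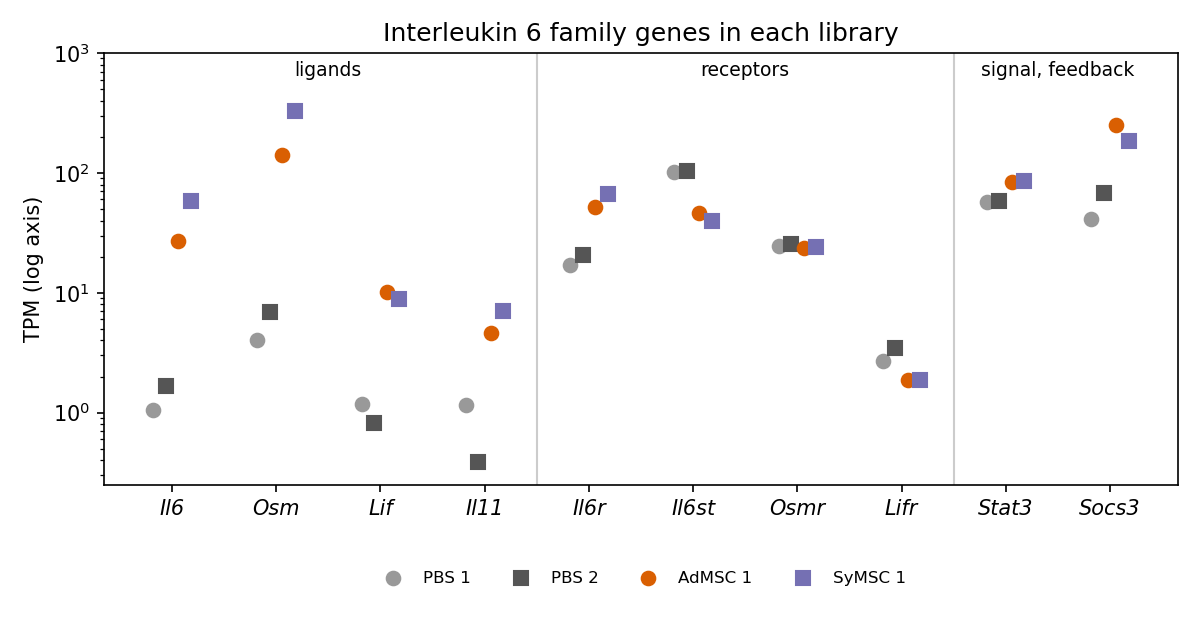
TPM on a log axis (vertical) of each of the 10 genes (horizontal) in the 4 libraries; each point is 1 library, with no error bar. All 4 ligands lie higher in AdMSC 1 and SyMSC 1 than in the PBS libraries, while Il6st lies lower and the Osmr points nearly coincide.

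The main comparison set both injected libraries against both PBS libraries with limma on log2(TPM + 1), over the 13371 genes that reached 1 TPM in 2 or more libraries. All 10 members passed this filter, each reaching 1 TPM in 3 or more libraries. Of the 10, 7 rose and 1 fell at an adjusted p under 0.05, and 2 did not pass. Over all tested genes 48.4% were called, 23.7% higher and 24.7% lower. The median log2 change of the members was 1.78, beside 0.001 for all tested genes. The injected and PBS values did not overlap for any of the 10 members, but that held for 78.8% of all tested genes. Because the injected side is made of 2 cell sources, a difference between the sources counts as spread.

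Every ligand rose: 4 of 4 were called higher, with log2 changes between 1.96 (Il11) and 5.10 (Osm). Osm, which encodes oncostatin M, stood at 4.05 TPM in PBS 1, 6.91 in PBS 2, 141 in AdMSC 1 and 329 in SyMSC 1. It was the most abundant ligand in each library, and its lowest injected value was far above its highest PBS value. The log2 change of 5.10 (SE 0.51, limma adjusted p = 0.00426) placed it at rank 13 from the top of the 13371 tested genes.

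Il6, which encodes interleukin 6, stood at 1.06 TPM in PBS 1, 1.67 in PBS 2, 27.3 in AdMSC 1 and 58.4 in SyMSC 1. Its log2 change was 4.13 (SE 0.39, limma adjusted p = 0.00159), at rank 41 from the top. With PBS values near 1 TPM, which are imprecise, the 1 added to each TPM value shrinks this change. The ratio of mean TPM, injected over PBS, was 31.4 for Il6 and 42.9 for Osm. As with Osm, SyMSC 1 held the highest level and the PBS libraries the lowest. The level of Osm divided by that of Il6 was 3.82 in PBS 1, 4.14 in PBS 2, 5.18 in AdMSC 1 and 5.64 in SyMSC 1, so Osm stayed several times above Il6 in all 4 libraries while both rose.

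Lif and Il11 rose from levels near 1 TPM. Lif encodes leukemia inhibitory factor, and it stood at 1.18 TPM in PBS 1, 0.82 in PBS 2, 10.1 in AdMSC 1 and 8.84 in SyMSC 1 (log2 change 2.39, SE 0.19, limma adjusted p = 0.000499). Interleukin 11, a cytokine of stromal cells, is encoded by Il11, which had 1.15 TPM in PBS 1, 0.39 in PBS 2, 4.6 in AdMSC 1 and 7.05 in SyMSC 1 (log2 change 1.96, SE 0.29, limma adjusted p = 0.00298). Unlike Osm and Il6, Lif was slightly lower in SyMSC 1 than in AdMSC 1. The 1 added to each TPM value shrinks the changes of such low genes, and with 0.1 in its place the log2 change was 3.14 for Lif and 2.89 for Il11.

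The receptor chains did not move together. Of 4, Il6r rose, Il6st fell, and Osmr and Lifr did not pass, with a median log2 change of -0.30. This split lies near that of all tested genes, of which 23.7% were called higher and 24.7% lower. Il6r, the private chain for interleukin 6, had 17.0 TPM in PBS 1, 20.5 in PBS 2, 51.7 in AdMSC 1 and 66.6 in SyMSC 1 (log2 change 1.60, SE 0.17, limma adjusted p = 0.0011). Il6st, the chain that all 4 ligands need, went the other way, from 102 and 104.5 TPM in PBS 1 and PBS 2 to 46.5 in AdMSC 1 and 39.96 in SyMSC 1 (log2 change -1.24, SE 0.13, limma adjusted p = 0.00103). The PBS libraries lay close together for Il6st, and both injected libraries were below them.

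Osmr, the chain that pairs with gp130 for oncostatin M, had 24.7 TPM in PBS 1, 25.7 in PBS 2, 23.5 in AdMSC 1 and 23.9 in SyMSC 1. Its log2 change of -0.09 (SE 0.12, limma adjusted p = 0.591) had a 95% interval from -0.39 to 0.22. This interval holds no change as well as modest changes either way, and the highest and lowest of the 4 libraries were closer in ratio than for any other member. Lifr, the chain for LIF, was low throughout, with 2.72 TPM in PBS 1, 3.49 in PBS 2, 1.89 in AdMSC 1 and 1.86 in SyMSC 1 (log2 change -0.51, SE 0.19, limma adjusted p = 0.0694). Its 95% interval, unadjusted, ran from -0.97 to -0.04, and the gene did not pass.

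**Figure D2:**
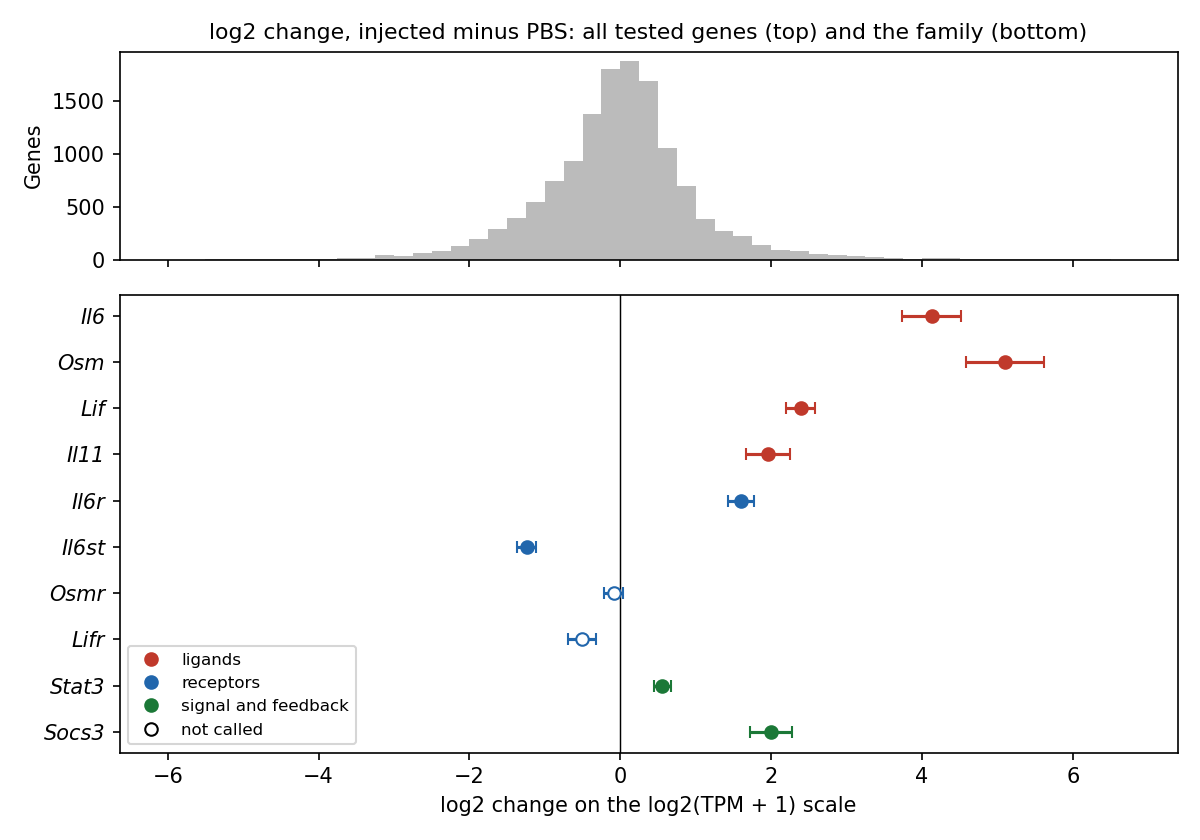
Top, number of tested genes (vertical) by log2 change between injected and PBS libraries (horizontal, log2(TPM + 1) scale); bottom, the 10 genes on the same axis with limma standard errors, open where not called. The ligands and Socs3 lie to the right of the bulk of genes, at 1.96 to 5.10, Il6st lies at -1.24 and Osmr at -0.09.

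Set against each other, ligand transcripts passed receptor transcripts after injection. The summed level of the 4 ligands was 7.44 TPM in PBS 1, 9.79 in PBS 2, 183 in AdMSC 1 and 404 in SyMSC 1. The summed level of the 4 receptor chains was 147 TPM in PBS 1, 154 in PBS 2, 123.5 in AdMSC 1 and 132 in SyMSC 1. The ligand sum divided by the receptor sum was thus 0.0507 and 0.0635 in PBS 1 and PBS 2, against 1.48 in AdMSC 1 and 3.05 in SyMSC 1. Osm led the ligand sum, with 54.4% and 70.6% of it in PBS 1 and PBS 2, 77.1% in AdMSC 1 and 81.6% in SyMSC 1. Without Osm the mean ratio was 0.0209 with PBS and 0.451 after injection, so the other ligands then stayed below the receptor sum. Transcript ratios are given as descriptions with no test, and say nothing of protein.

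The make-up of the sum of these 4 receptor chains differed more than its size. The sum leaves out Il11ra1, the private chain for interleukin 11, so its size depends on the chains chosen. Il11ra1 had 103 TPM in PBS 1, 161 in PBS 2, 24.8 in AdMSC 1 and 14.8 in SyMSC 1. Il6st held 69.7% of it in PBS 1 and 67.8% in PBS 2, but 37.6% in AdMSC 1 and 30.2% in SyMSC 1. Il6r went from 11.6% and 13.3% in PBS 1 and PBS 2 to 41.8% in AdMSC 1 and 50.3% in SyMSC 1. The level of Il6r divided by that of Il6st was 0.166 in PBS 1 and 0.196 in PBS 2, and 1.11 in AdMSC 1 and 1.67 in SyMSC 1: the private chain stood well below gp130 with PBS and above it after injection. Osmr divided by Il6st was 0.242 and 0.245 in PBS 1 and PBS 2 and 0.505 and 0.597 in AdMSC 1 and SyMSC 1, a rise in ratio that comes from Il6st, since the level of Osmr barely differed. Without Il6st the direction of the receptor sum turned, with a mean of 47.05 TPM for PBS and 84.65 TPM for the injected libraries. Osm per Osmr, as a ratio of levels, was 0.164 in PBS 1, 0.269 in PBS 2, 6.02 in AdMSC 1 and 13.8 in SyMSC 1.

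**Figure D3:**
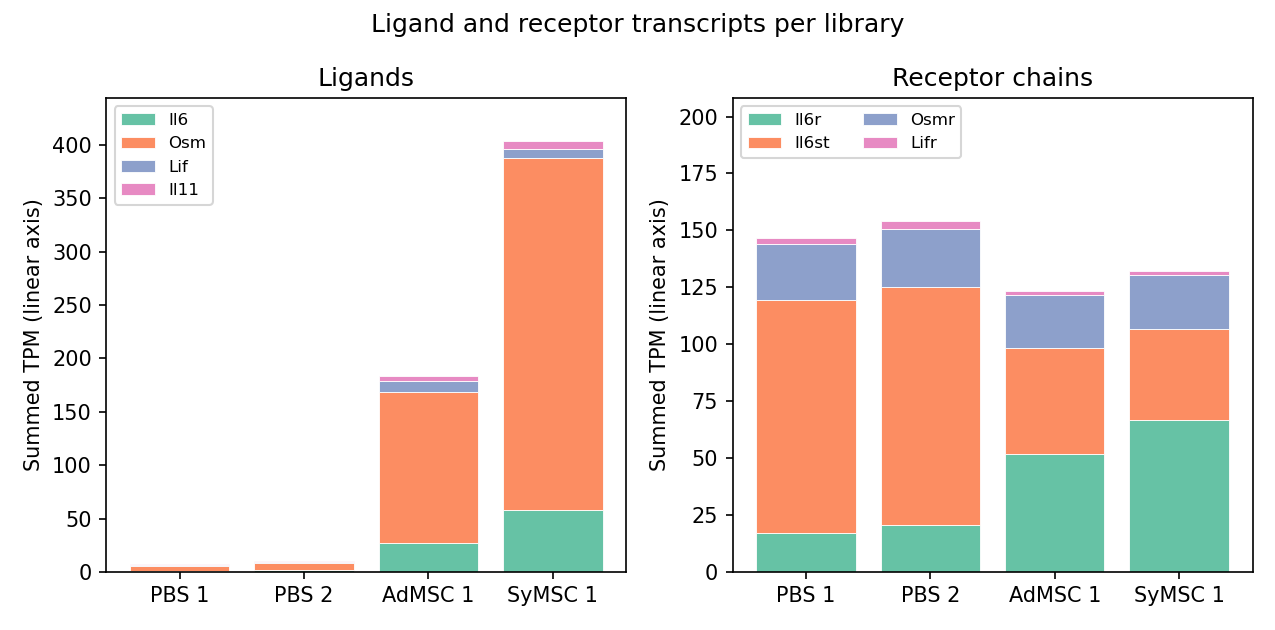
Stacked TPM (vertical, linear axis from 0) of the 4 ligands (left) and the 4 receptor chains (right) in each library (horizontal), with no error bars. The ligand bars reach 183 and 404 TPM in AdMSC 1 and SyMSC 1, mostly Osm. The receptor bars, which leave out Il11ra1, stay between 123.5 and 154 TPM while the Il6r part grows and the Il6st part shrinks.

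Both the signal gene and the feedback gene rose. Stat3, the transcription factor downstream of gp130, had 57.3 TPM in PBS 1, 57.8 in PBS 2, 84.3 in AdMSC 1 and 85.9 in SyMSC 1 (log2 change 0.56, SE 0.12, limma adjusted p = 0.00978). Libraries of the same side agreed closely for Stat3, yet the call ended when PBS 1 (limma adjusted p = 0.0627) or PBS 2 (0.059) was left out. Socs3, the feedback inhibitor, had 41.4 TPM in PBS 1, 67.7 in PBS 2, 251 in AdMSC 1 and 184 in SyMSC 1 (log2 change 2.0, SE 0.28, limma adjusted p = 0.00371). Here AdMSC 1 was the highest library, unlike Osm and Il6, for which it was SyMSC 1. The level of Socs3 divided by that of Stat3 went from 0.723 and 1.17 in PBS 1 and PBS 2 to 2.98 in AdMSC 1 and 2.14 in SyMSC 1.

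Within the pairs that the titles join, 1 library stands against 1, so there is no test. A gene counted as past the fold when TPM + 1 differed at least 2-fold either way and the higher value reached 5 TPM. In AdMSC 1 over PBS 1, Il6, Osm, Lif, Il6r and Socs3 were past it upwards and Il6st downwards, where 9.0% of tested genes were past the fold upwards and 9.89% downwards. In SyMSC 1 over PBS 2 the same 6 genes and Il11 were past it in the same directions, with 10.4% of tested genes upwards and 12.2% downwards. The pair values were close for Lif (log2 ratios of 2.35 and 2.44 in the Ad and Sy pairs), Il6r (1.55 and 1.65), Il6st (-1.12 and -1.37) and Stat3 (0.55 and 0.56). They were farther apart for Il11 (1.38 and 2.53) and, in the opposite order, Socs3 (2.57 and 1.43), and whether the pairs differ was not tested. All 10 members had the same sign in both pairs, also when the PBS libraries were exchanged. This had to be so, because their injected and PBS values did not overlap, which held for 78.8% of all tested genes.

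**Figure D4:**
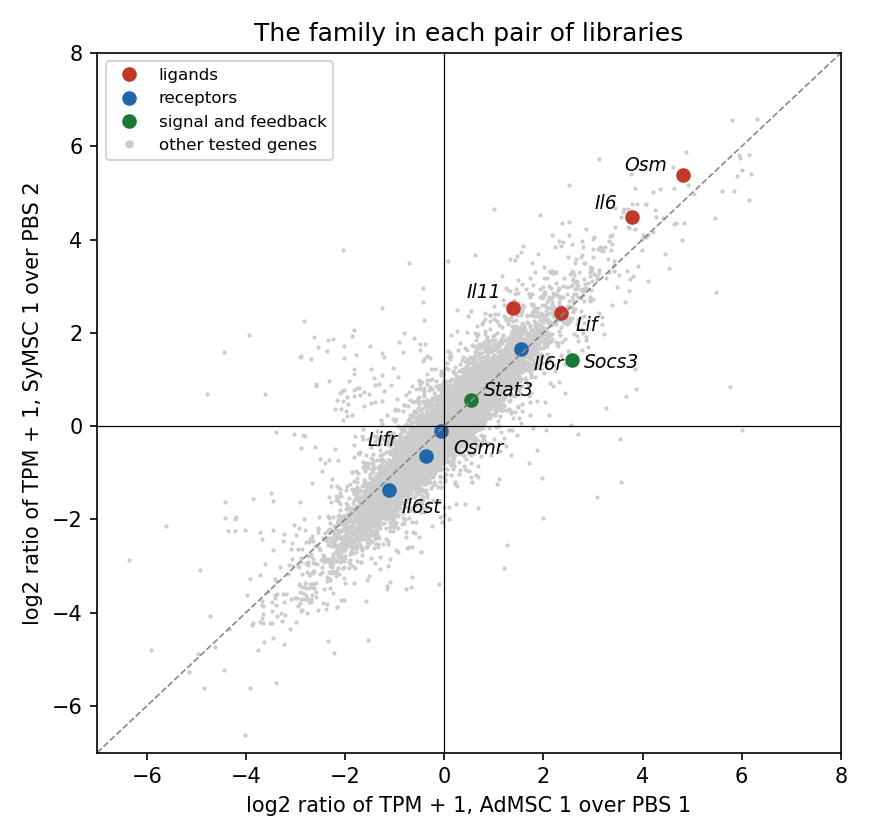
Log2 ratio of TPM + 1 for AdMSC 1 over PBS 1 (horizontal) and SyMSC 1 over PBS 2 (vertical); grey points are the other tested genes, coloured points the 10 members by role, and the dashed line marks equal ratios. The members keep their sign in both pairs, as any gene whose injected and PBS values do not overlap must. Il11 lies above the line (1.38 and 2.53) and Socs3 below it (2.57 and 1.43).

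Between the injected libraries, SyMSC 1 over AdMSC 1, Il6 (log2 ratio 1.07) and Osm (1.22) were past the fold, both higher in SyMSC 1, and the other 8 members were not. Of all tested genes 1.1% were past the fold upwards in this comparison and 0.546% downwards. Lif (-0.18) and Socs3 (-0.45) had lower values in SyMSC 1, and Il6st did too (-0.21). Between the PBS libraries none of the 10 was past the fold, where 1.7% of tested genes were. The widest log2 ratios there, PBS 2 over PBS 1, were 0.70 for Socs3, 0.65 for Osm and -0.63 for Il11, so a part of the difference between the title pairs in Socs3 and Il11 lay in the PBS libraries.

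Cell type markers moved on the same axis as the members. Their counts stand beside 23.7% of all tested genes called higher and 24.7% lower. In bulk tissue, fewer cells of a type and less RNA per cell cannot be told apart. Of 11 tested neutrophil markers 9 rose and 2 did not pass (5 rose without SyMSC 1), and the summed level of the list of 12 was 265 and 129 TPM in PBS 1 and PBS 2, against 2822 in AdMSC 1 and 4984 in SyMSC 1; of its genes Cxcr1 was near 0 in all 4 libraries. Of 13 monocyte and macrophage markers 9 were called higher and 1 lower; without PBS 1 the lower calls numbered 3, and without any other single library 0 (summed level 11036 and 12797 TPM with PBS, 27029 in AdMSC 1 and 36498 in SyMSC 1). For both lists SyMSC 1 was the highest library, as it was for Osm, Il6, Il11 and Il6r, but Lif and Socs3 were highest in AdMSC 1, and Stat3 was nearly equal in both. Of 13 fibroblast markers 9 were called lower and none higher (41092 and 33209 TPM with PBS, 18330 in AdMSC 1 and 12335 in SyMSC 1), endothelial markers fell in 9 of 10 and mural cell markers in 8 of 8. T and NK cell markers rose in 5 of 9 tested and fell in 1 (2 fell without PBS 2). Skeletal muscle markers fell in 4 of 8, but in 2 without AdMSC 1 or SyMSC 1, 7 without PBS 1 and 8 without PBS 2. Adipocyte markers fell in 2 of 6, in 0 without AdMSC 1 or SyMSC 1 and in 6 without PBS 1. Of 5 erythroid markers limma called 0, and 0 had an unadjusted p under 0.05. Il6st fell, as most of the fibroblast, endothelial and mural cell markers did, and Osmr was not called. The part of cell make-up in the members' changes was not tested. The lining fibroblast gene Prg4, which encodes lubricin and marks synovium, had between 2448 and 4192 TPM in the 4 libraries, so the labelled tissue carried its marker.

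Among other cytokines that use gp130 or its relatives, 1 of 4 tested genes rose, 1 fell and 2 did not pass, with a median log2 change of 0.22. Beside this count and those of the lists that follow, 23.7% of all tested genes were called higher and 24.7% lower. Ebi3, a subunit of interleukin 27, had 8.99 and 6.76 TPM in PBS 1 and PBS 2, 25.9 in AdMSC 1 and 53.9 in SyMSC 1 (log2 change 2.13, SE 0.38, limma adjusted p = 0.0109). That call ended without PBS 1 (limma adjusted p = 0.0568) or PBS 2 (0.0805), and the partner subunit gene Il27 stayed under 1 TPM in all 4 libraries. Ctf1, which encodes cardiotrophin 1, fell from 12.9 and 12.8 TPM in PBS 1 and PBS 2 to 4.05 in AdMSC 1 and 2.53 in SyMSC 1 (limma adjusted p = 0.00169). The ligands of the family therefore did not all rise. Clcf1 (log2 change 0.38) and Cntf (0.06) did not pass.

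Of the other receptor genes 4 could be tested, and 3 fell and 1 rose (median log2 change -1.27). Il11ra1, the private chain for interleukin 11, had 103 TPM in PBS 1, 161 in PBS 2, 24.8 in AdMSC 1 and 14.8 in SyMSC 1 (log2 change -2.68, SE 0.33, limma adjusted p = 0.00329). It thus went down where its ligand gene Il11 went up, while Il6r and Il6 rose together. Cntfr, the private chain for ciliary neurotrophic factor (log2 change -1.68), fell as well. The gene that rose, Crlf2 (1.63), encodes the receptor chain for thymic stromal lymphopoietin and does not act through gp130.

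Of 10 Janus kinase and STAT genes other than Stat3, 6 were called higher and none lower, with a median log2 change of 0.60. Stat5b (1.03), Jak3 (0.90), Stat6 (0.86) and the gp130-associated kinase gene Jak2 (0.77) showed the 4 largest changes. Jak1, which also encodes a gp130-associated kinase and is named after its values were seen, was not called (0.20, limma adjusted p = 0.198). Without SyMSC 1, and likewise without PBS 2, only 3 of the 6 were still called: Jak2 lost its call (limma adjusted p = 0.0624 and 0.0618), as did Tyk2 and Stat5a, which are named after their values were seen. Changes in this list were modest beside those of the ligands, and of about the size seen for Stat3.

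Of 17 genes that brake this pathway 5 rose, 3 fell and 9 were not called (median log2 change -0.05), where 48.4% of all tested genes were called. Pias3, named after its values were seen, was 1 of the 3 that fell (log2 change -0.41, limma adjusted p = 0.0477). It was not called with no filter on low values, with the title word as a replicate block, or without any single library. Those with the largest changes were the leukocyte phosphatase genes Ptprc (CD45, 2.60) and Ptpn6 (SHP-1, 1.81), the phosphatase gene Ptpn1 (1.67) and Socs2 (-1.21). Socs1 is added here after its values were seen: it had 26.5 and 17.2 TPM in PBS 1 and PBS 2, 10.9 in AdMSC 1 and 8.65 in SyMSC 1 (log2 change -1.06, limma adjusted p = 0.0117). The Socs1 call ended without SyMSC 1 (limma adjusted p = 0.0651), where 1 brake, Socs2, was still called lower. Socs2 is known mainly as a brake on growth hormone signalling, and it fell where Socs3 rose.

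Of 25 genes listed as targets of STAT3, 17 were called higher, 2 lower and 6 neither way, with a median log2 change of 1.41. The transcription factor gene Cebpb had 47.2 and 106 TPM in PBS 1 and PBS 2, 618 in AdMSC 1 and 1073 in SyMSC 1 (log2 change 3.50). Its call ended without AdMSC 1 (limma adjusted p = 0.0645) or SyMSC 1 (0.0964). Fewer genes of the list were called higher when any single library was left out. Its median log2 change then lay between 1.209 (without SyMSC 1) and 1.44 (without AdMSC 1). With no filter on low values 15 were called higher and 2 lower. The kinase gene Pim1 (2.66), the AP-1 factor gene Batf (2.42) and Vegfa, which encodes an angiogenic growth factor (2.03), followed. Many of these genes are known to answer to other signals too, and which signal their changes follow was not tested.

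Acute phase genes, which in liver are driven by interleukin 6, were called both ways: 5 of 16 tested rose, 4 fell and 7 did not pass (median log2 change 0.57). This count rests on single libraries, with 8 higher and 2 lower without AdMSC 1 (median 1.16), 6 and 2 without SyMSC 1, and 5 and 2 without PBS 2. The number lower was also 2 with median-ratio scaling or with no filter. Among called genes the 4 largest changes were all upwards: Il1rn (3.99), Mt2A (2.45), Lrg1 (2.41) and Mt1 (2.22). Il1rn encodes the interleukin 1 receptor antagonist, Mt2A and Mt1 encode metallothioneins, and Lrg1 encodes a secreted glycoprotein. Of the 4 that fell, Cp (-1.81) and Crp (-1.68, from low levels) changed most, and they are named after their values were seen. Among genes for receptor shedding and the control of Il6 messenger RNA, 4 of 9 rose, 2 fell and 3 did not pass (median 0.17). Timp3, an inhibitor of the sheddase ADAM17, fell from 209 and 222 TPM in PBS 1 and PBS 2 to 65.2 in AdMSC 1 and 35.05 in SyMSC 1 (log2 change -2.15, limma adjusted p = 0.00443). Zc3h12a, whose protein degrades Il6 messenger RNA (1.41), Arid5a, whose protein stabilises it (1.19), and Rhbdf2, a partner of ADAM17 (1.37), rose. The sheddase gene Adam17 itself was not called (0.14, limma adjusted p = 0.351). Rhbdf1, a relative of Rhbdf2, fell (-0.86, limma adjusted p = 0.00461). Adam17 and Rhbdf1 are named after their values were seen, and shedding was not measured. Zc3h12a lost its call without PBS 1 (limma adjusted p = 0.0955), where 2 genes of this list were called higher and 2 lower.

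**Figure D5:**
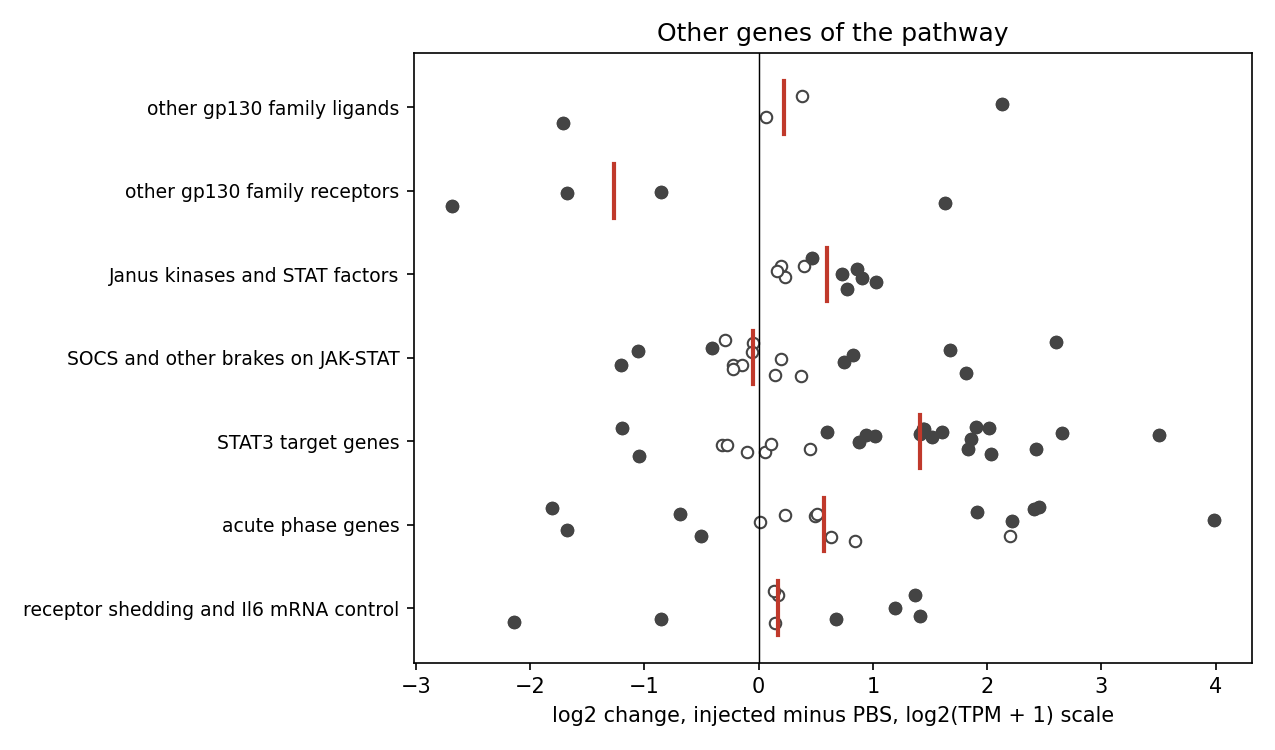
Log2 change between injected and PBS libraries (horizontal) of the other genes of the pathway in 7 lists (vertical); each point is a tested gene, filled where limma called it, the red bar is the list's median, and the vertical scatter is only for legibility. The STAT3 target list has its median at 1.41, the other gp130 family receptors at -1.27, and the brakes on both sides of 0.

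The genes whose pattern over the 4 libraries lay closest to that of a member were found by the Euclidean distance between centred log2(TPM + 1) profiles, among tested genes with a mean of at least 5 TPM. With 4 libraries this is a coarse description. Closest to Il6 were Il1rn (distance 0.18), Sirpd (0.204) and the C-type lectin gene Clec4d (0.23). Closest to Osm, at larger distances, were Clec4e (0.403), Ifit1bl (0.445) and the niacin receptor gene Niacr1 (0.502). Il6st had nearer companions in Sptan1 (0.0349), which encodes a spectrin of the cell cortex, Tp53i11 (0.0439) and the tetraspanin gene Cd81 (0.0439). Lifr was nearest to P2ry13 (0.0483), a nucleotide receptor gene, Tmem143 (0.0558) and Cisd3 (0.062).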

How the data were processed

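Per the labels' protocols, RNA from 4 synovium libraries was captured with oligo-dT beads, fragmented, reverse transcribed with random primers, given a dUTP second strand and sequenced on a BGISEQ-500. The authors deposited TPM, per the file headers. Every column has the same total over rat genes, so where abundant genes gain, the rest lose share. The submitters' processing notes name HISAT2 2.0.4 and the build Rnor_6.0. How reads were counted, on which annotation and strand, and whether human reads were removed is not given in the sources used here. Depth cannot be had from TPM, so no counting interval is given.

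Symbols are those of the table; 10 rows carried a repeated symbol, none of a member. The 13371 genes reaching 1 TPM in 2 or more libraries were tested on log2(TPM + 1) with limma 3.58.1 in R 4.3.3 (trend and robust eBayes, 2 residual degrees of freedom), 2 injected against 2 PBS libraries, with Benjamini-Hochberg adjustment over all of them and a threshold of 0.05. The fit was also run on simulated data in which few genes changed, unlike these data, so that run does not bear on the calls here. Members, 16 further lists (179 of 182 entries matched) and tests were chosen with earlier results of these data known. The named genes are all members, at most 4 per list (called with the largest change, or else the highest mean), and the 3 nearest in pattern to Il6, Osm, Il6st and Lifr; 1 gene that this rule picks is not reported here. Promoter windows come from a RefSeq table of GRCr8 and were used for letters and positions alone.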

Additional observations from a re-analysis of the deposited data

How the results depend on the processing

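The limma fit was repeated with median-ratio and upper quartile scaling, with no filter, with a pseudocount of 0.1, with 3 groups, with the title word as a replicate block, and without each library. Of 100 repeats for single members, 98 kept their direction and side of the threshold; the other 2 were Stat3 without PBS 1 or PBS 2. Members called numbered 7 to 8 without 1 library and 8 with the title word as a replicate block, and all genes called numbered 6590 with that block against 6476 and between 4590 and 5379 without 1 library. The titles share a word and no number, and nothing says that they mark the same animal, so the block is not taken as a pairing. For the pathway genes picked by the rule for naming, with Socs1, 282 repeats were unchanged in call and 8 lost it, those of Ebi3, Jak2, Socs1, Cebpb and Zc3h12a. Without Osm the mean ligand sum was 3.135 TPM with PBS and 58.14 TPM after injection, and the mean ratio to the receptor sum 0.0209 and 0.4509. Without Il6st the mean receptor sum was 47.05 and 84.65 TPM, and the PBS ratio 0.1823. Left out in turn, each library leaves 1 on its side, which is then assumed to vary like the rest.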
